A study of Mus musculus with 15 samples.

Results

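The 8 genes described here carry bile acids through the ileal enterocyte or report on them to the cell. They were chosen by name for their known roles, with no measured value in the rule, and comprise the carriers Slc10a2, Slc51a and Slc51b, the binding protein Fabp6, the receptors Nr1h4 and Gpbar1, and Fgf15 and Nr0b2, which encode a hormone and a repressor induced by the bile acid receptor FXR. They are 8 of the 17752 genes listed for any mouse. Of these 8, 7 passed the filter on low counts used for the test across all genes, and Gpbar1 did not.

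RNA-seq of ileal tissue was performed on 15 female C57BL/6JOlaHsd mice (C57BL/6 in the labels) in 3 groups of 5, labelled as 8 weeks of age (the study's methods give a younger age on arrival). All mice received a purified control diet and were gavaged every 2nd day over 10 days with water or with proanthocyanidins (PAC), polymeric polyphenols purified from grape, at 200 mg/kg. The low PAC group received a fraction of low polymer size, and the high PAC group the fraction that its labels call high molecular weight and the study's methods call medium in mean degree of polymerization. The comparisons ask whether orally given PAC of differing polymer size alter gene expression in the gut of healthy mice, and the water group is shared by both comparisons with PAC. Each mouse gave 1 library from a piece of whole ileum, so fewer enterocytes in a piece and less RNA per enterocyte cannot be told apart.

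Bile acids made in the liver are taken back from the gut almost entirely in the terminal ileum. There the apical sodium-dependent carrier ASBT (Slc10a2) brings them into the enterocyte, the small cytosolic protein Fabp6 binds them, and the heteromeric exporter of Slc51a and Slc51b (OSTα and OSTβ) passes them on to the portal blood. Inside the cell they activate the nuclear receptor FXR (Nr1h4), which with RXR raises transcription of Fabp6, both exporter subunits, the repressor SHP (Nr0b2) and the hormone Fgf15, which travels to the liver and lowers bile acid synthesis. TGR5 (Gpbar1) is a separate bile acid receptor at the cell surface.

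FXR is known to bind an inverted repeat of a hexamer with a spacer of 1 base, written here as AGGTCA, 1 free base and TGACCT. The 250 bases before the RefSeq start of 7 of the 8 genes (GRCm38.p6, the gene's own strand) were searched for the stretch closest to it, with 12 letters compared. Because the motif is its own reverse complement, 1 search covers both strands. The promoters of Fabp6 and Slc51a are shown whole as those of 2 known FXR targets, Fabp6 holding the closest matches among the 7, with the closest stretches in capitals. The Fabp6 region is chr11:43601563-43601812 and the Slc51a region chr16:32487880-32488129, both on the minus strand.
Fabp6: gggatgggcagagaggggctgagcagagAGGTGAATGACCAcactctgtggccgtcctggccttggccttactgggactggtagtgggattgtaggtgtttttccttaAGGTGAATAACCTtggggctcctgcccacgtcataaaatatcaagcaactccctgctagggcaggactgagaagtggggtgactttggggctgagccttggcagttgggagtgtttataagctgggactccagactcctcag
Slc51a: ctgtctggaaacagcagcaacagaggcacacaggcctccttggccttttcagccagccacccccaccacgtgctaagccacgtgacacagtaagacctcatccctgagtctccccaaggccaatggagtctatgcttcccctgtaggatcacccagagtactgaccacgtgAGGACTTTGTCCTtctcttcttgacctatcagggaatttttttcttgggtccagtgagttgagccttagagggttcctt
In Fabp6, 10 of the 12 letters matched in each of 2 stretches, which begin 222 and 142 bases before the start. A stretch with at most 2 mismatches stood in 0.959% of the 32851 promoters searched. In Slc51a, 9 letters matched, and a stretch with at most 3 mismatches was far more frequent, at 9.63% of promoters. The closest stretches of the other 5 genes are given for comparison, 2 of them equally close in Nr0b2.
Slc51b: GGGTCATTCACCC
Slc10a2: AGTTCATTATCAT
Nr1h4: TGGCATTTGACCT
Nr0b2: ACTTCATTGACTA
Nr0b2: TGGCCAGTCCCCT
Gpbar1: TGGGCAGTGACTG
Slc51b had 9 matching letters and the other 4 had 8, a match that 50% of all promoters reached. A single hexamer AGGTCA on either strand, which may lie within the repeat, was present in 3 of the 7 promoters and in 14% of all promoters. A match describes letters only, and no binding was measured. For Slc10a2, Slc51b, Nr1h4 and Gpbar1 the RefSeq start lies inside the gene as GENCODE draws it.

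Expression was compared between genes as FPKM, fragments scaled by the length of the gene and the size of the library. Fabp6 was by far the most abundant of the 8 genes, with a mean over the 15 mice of 6826 FPKM, and ranked between 1 and 16 among all genes of a mouse. The exporter subunits followed at 629 (Slc51a) and 404 FPKM (Slc51b), then the uptake carrier Slc10a2 at 244, the hormone Fgf15 at 119 and the receptor Nr1h4 at 91.1. The repressor Nr0b2 was scarce at 1.59 FPKM and the surface receptor Gpbar1 close to undetected at 0.318. This order held in 15 of 15 mice for every neighbouring pair apart from Slc10a2 above Fgf15, which held in 14 mice, and Fgf15 above Nr1h4, which held in 12 mice. The ratio of Slc51a to Slc51b was 1.56 ± 0.13 (SD, n = 15) in FPKM, between 1.34 and 1.74. Together the 8 genes took 0.32% to 0.636% of each library.

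**Figure D1:**
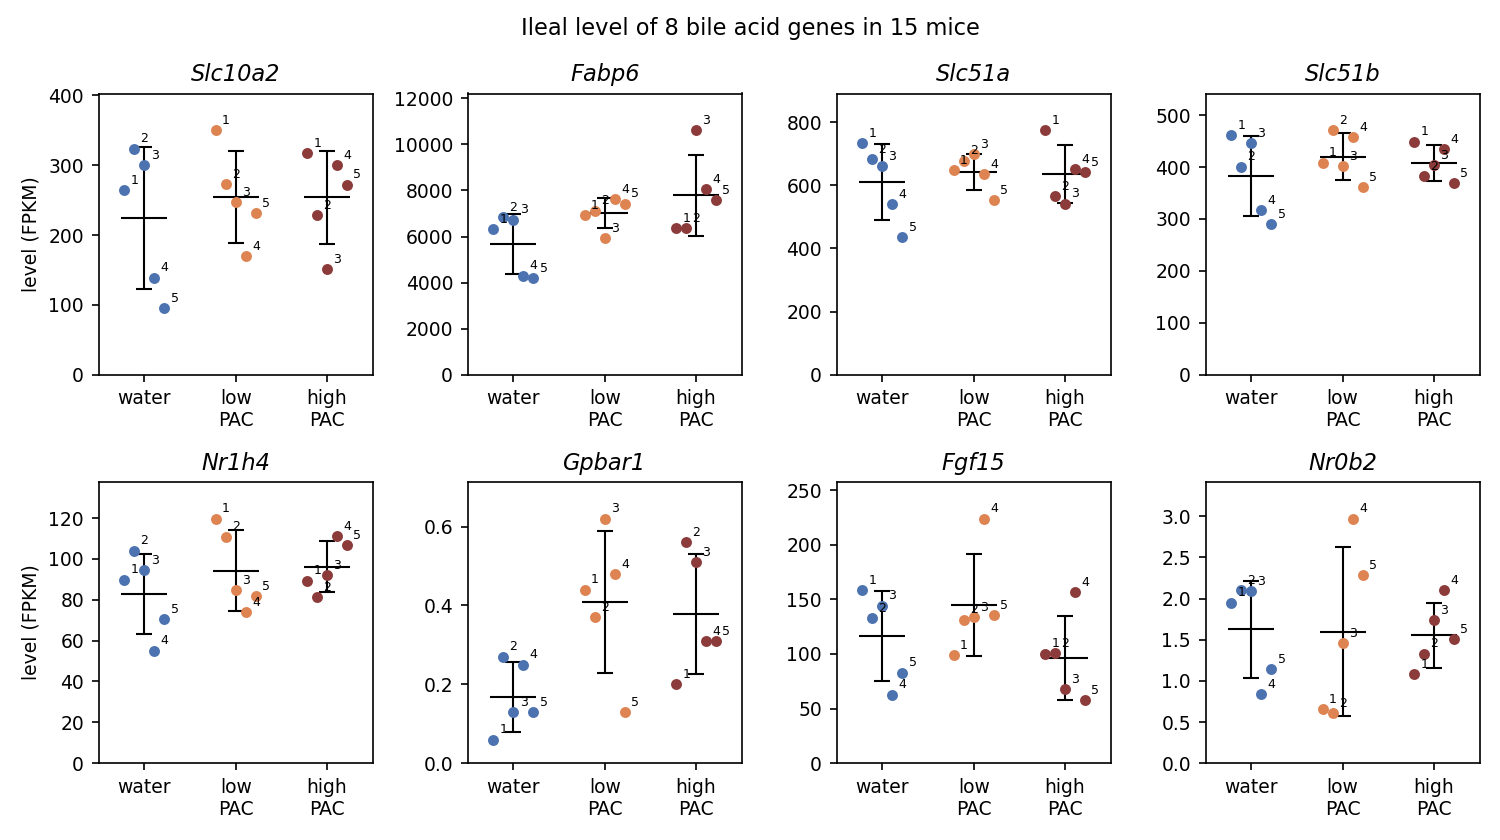
FPKM of the 8 genes (one panel per gene, linear axes from 0) in the water, low PAC and high PAC groups. Points are single mice with their number, bars the mean and SD of 5 mice, and water mice 4 and 5 lie lowest for Slc10a2, Fabp6, Slc51a and Slc51b.

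Library totals ran from 15963086 to 17903886 expected counts. The tissue label was checked against marker genes. Distal ileum markers such as Clec2h, Cubn and Nts were expressed in all mice (sum of 6 markers between 912 and 1414 FPKM), whereas of the 4 colon markers Car1, Aqp8 and Insl5 had a median of 0 and Slc37a2 ranged from 0.32 to 0.82 FPKM, and the 4 liver markers summed to between 1.93 and 6.01 FPKM, of which Alb reached at most 0.54 and Ttr 4.73. High PAC 3 stood apart, with a score on the first principal component of 195 against -50.4 to 42.9 in the other mice and the lowest sum of 7 enterocyte markers, 6892 FPKM against 8970 to 13504. Its liver marker sum, 6.01 FPKM, was the highest, mostly from Ttr (4.73 FPKM), while its Alb was 0.12 FPKM. Several values for high PAC are also given without this mouse.

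None of the 7 tested genes passed an adjusted p of 0.05 in any of the 3 comparisons (edgeR quasi-likelihood test, Benjamini-Hochberg over 14386 genes). For high PAC against water the smallest adjusted p among them was 0.356, and 2 of all genes (0.0139%) passed. For low PAC against water it was 0.976 and for high PAC against low PAC 0.896, and the share of all genes that passed was 0% in each. At an unadjusted p under 0.05, 0 of the 7 genes were found in each comparison, beside 14.8%, 3.61% and 3.89% of all genes. With DESeq2 the adjusted test again gave 0 of the 7, beside 0.779%, 0.0139% and 0% of all genes. Its unadjusted p was under 0.05 for 1 of the 7 with high PAC against water (Fabp6, beside 14.9% of all genes) and for 0 in the other comparisons (3.48% and 4.23%). The median log2 fold change of the 7 genes was -0.01, 0.12 and -0.06 in the 3 comparisons, beside medians of 0.002, -0.014 and 0.005 over all genes. Without high PAC 3 the count of genes passing was 0 of 7 in each comparison.

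**Figure D2:**
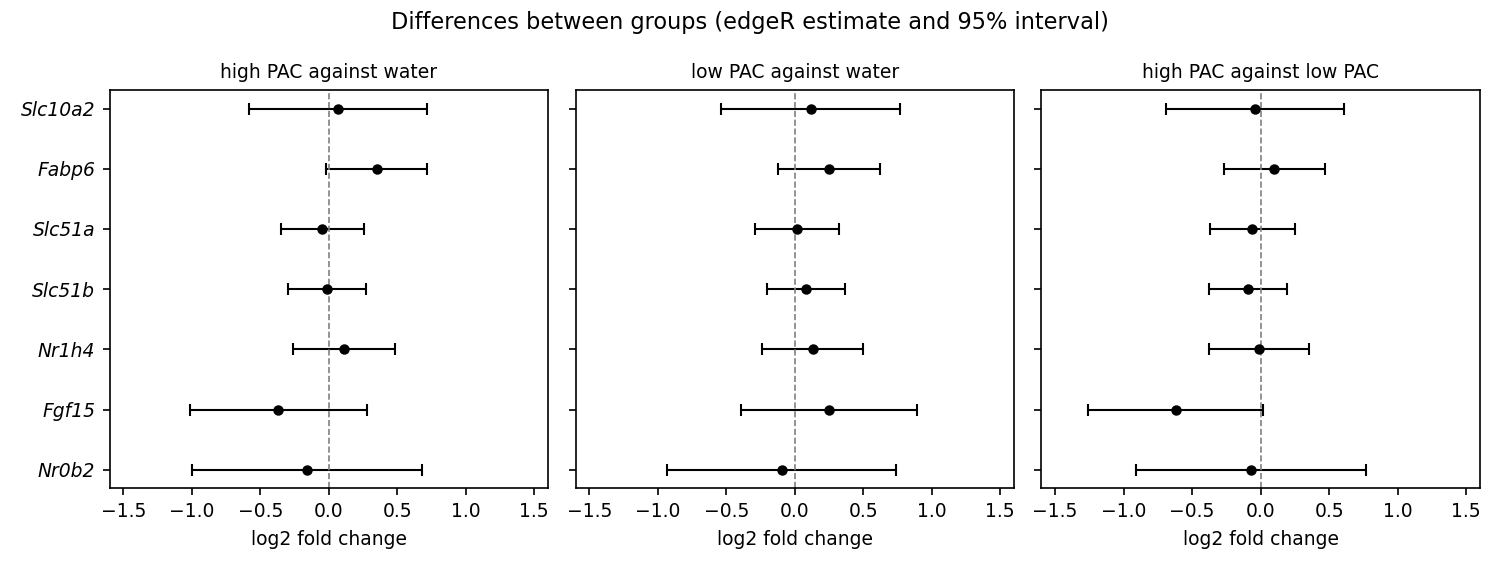
Log2 fold change of the 7 tested genes (x axis, edgeR on the counts) in the 3 comparisons, one panel each. Points are estimates and bars 95% intervals, all of which include 0, and the widest belong to Nr0b2, Slc10a2 and Fgf15.

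Slc10a2 (gene 20494, GRCm38 chromosome 8, 5083219 to 5105351, minus strand), the apical uptake carrier, was the member that varied most between water mice among the abundant genes. The water mice 1 to 5 had 264, 324, 300, 139 and 94.8 FPKM (mean 224 ± 101, SD, n = 5). The low PAC mice had 350, 273, 247, 170 and 231 FPKM (254 ± 65.6). The high PAC mice had 317, 229, 151, 300 and 272 FPKM (254 ± 66.3). Water mice 4 and 5 were the lowest of all 15, the other 3 water mice were at the level of the PAC groups, and all groups overlapped. The log2 fold change was 0.07 for high PAC against water (SE 0.31, 95% interval -0.58 to 0.72, adjusted p = 0.926 from edgeR) and 0.12 for low PAC (interval -0.54 to 0.77). Between the PAC groups it was -0.04 (interval -0.69 to 0.61). In folds, the interval for high PAC against water ran from 0.67 to 1.65.

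Fabp6 (gene 16204, chromosome 11, 43596049 to 43601540, minus strand), the cytosolic bile acid binding protein, had the smallest p of the 7 genes against water. The water mice had 6321, 6831, 6739, 4307 and 4196 FPKM (5679 ± 1318, SD, n = 5). The low PAC mice had 6941, 7124, 5937, 7630 and 7425 FPKM (7011 ± 657). The high PAC mice had 6352, 6362, 10620, 8047 and 7566 FPKM (7789 ± 1749). In FPKM, 4 of 5 low PAC mice and 3 of 5 high PAC mice lay above the highest water mouse, and the highest mouse of all was high PAC 3. The log2 fold change on the counts was 0.35 for high PAC against water (SE 0.17, 95% interval -0.02 to 0.72, unadjusted p = 0.0595, adjusted p = 0.356 from edgeR), a fold of 1.28. For low PAC it was 0.25 (SE 0.17, interval -0.12 to 0.62, adjusted p = 0.976). An exact permutation test (two-sided, on log2(FPKM + 0.1)) gave p = 0.0635 and 0.0952, where the smallest possible p is 0.0079. Neither difference passed the test. Without high PAC 3 the log2 fold change for high PAC was 0.26, and without water 5, 0.25. Across the other fits with at most 1 mouse left out it lay between 0.27 and 0.46, the adjusted p of edgeR, DESeq2 and limma was between 0.252 and 0.512 over all of them, and the unadjusted p passed 0.05 in some, such as DESeq2 (0.0201). Without water 1 and 3, whose smooth muscle markers were low, which leaves the low mice 4 and 5 as 2 of 3 water mice, it was 0.55 for high PAC (unadjusted p from edgeR 0.0133, adjusted p = 0.62) and 0.45 for low PAC (unadjusted p 0.0363, adjusted p = 1). Between the PAC groups the log2 difference was 0.10 (interval -0.27 to 0.47).

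The 2 subunits of the basolateral exporter moved little. Slc51a (gene 106407, chromosome 16, 32474504 to 32487879, minus strand) had 734, 682, 661, 539 and 436 FPKM in the water mice (610 ± 121, SD, n = 5). The low PAC mice had 647, 678, 699, 635 and 552 FPKM (642 ± 56.2). The high PAC mice had 774, 566, 542, 651 and 642 FPKM (635 ± 91.1). The lowest mouse was again water 5, and the groups overlapped. Its log2 fold change was -0.05 for high PAC (SE 0.14, 95% interval -0.35 to 0.26, adjusted p = 0.899 from edgeR), although the mean FPKM was higher than in water, and 0.02 for low PAC (interval -0.29 to 0.32). Slc51b (gene 330962, chromosome 9, 65412714 to 65422955, minus strand) ranged from 290 to 461 FPKM in the water mice, from 361 to 471 in the low PAC mice and from 369 to 449 in the high PAC mice. Its log2 fold changes were -0.01 (interval -0.30 to 0.27) and 0.08 (interval -0.20 to 0.37) against water, the narrowest intervals of the 7 genes. Both subunits overlap a gene on the opposite strand, Slc51a the end of Pcyt1a and Slc51b the end of Rasl12, and whether strand was used in counting is not given in the sources used here.

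The nuclear receptor gene Nr1h4 (FXR, gene 20186, chromosome 10, 89454234 to 89533585, minus strand) had 89.9, 104, 94.5, 55.2 and 70.7 FPKM in the water mice (82.8 ± 19.7, SD, n = 5). The low PAC mice had 120, 111, 84.9, 74.0 and 81.7 FPKM (94.2 ± 19.9). The high PAC mice had 89.4, 81.3, 92.1, 111 and 107 FPKM (96.2 ± 12.5). Water mice 4 and 5 were the 2 lowest of the 15, and 2 mice of each PAC group exceeded the highest water mouse. The log2 fold change was 0.11 for high PAC (SE 0.17, 95% interval -0.26 to 0.48, adjusted p = 0.77 from edgeR) and 0.13 for low PAC (interval -0.24 to 0.50), and -0.01 between the PAC groups (interval -0.38 to 0.35).

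Gpbar1 (TGR5, gene 227289, chromosome 1, 74278550 to 74279624, plus strand) is the member whose groups were farthest apart in relative terms, at a level near the limit of detection. The water mice had 1, 4, 2, 4 and 2 counts (0.168 ± 0.089 FPKM, SD, n = 5). The low PAC mice had 7, 6, 10, 7 and 2 counts (0.408 ± 0.18 FPKM). The high PAC mice had 3, 9, 8, 5 and 5 counts (0.378 ± 0.151 FPKM). In FPKM, 4 of the 5 mice in each PAC group lay above every water mouse, and 1 in each did not. The exact permutation p of log2(FPKM + 0.1) was 0.0397 for high PAC and 0.0556 for low PAC, unadjusted for the 8 genes compared, and 0.8651 between the PAC groups. By this test 1 of the 8 genes had p under 0.05 for high PAC, a share near that of all 17752 genes (14.7%), and 0 did for low PAC and between the PAC groups (4.26% and 4.04% of all genes). In the edgeR fit without a filter the log2 fold changes were 1.09 (SE 0.46, 95% interval 0.11 to 2.08, adjusted p = 0.367) and 1.23 (SE 0.46, interval 0.25 to 2.20, adjusted p = 0.972), which did not pass. With 13, 32 and 30 counts summed over the 5 mice of the water, low PAC and high PAC groups, these values carry a large counting error.

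Fgf15 (gene 14170, chromosome 7, 144896531 to 144900953, plus strand), the ileal hormone and classical FXR target, differed most between the PAC groups. The water mice had 159, 133, 144, 62.7 and 82.8 FPKM (116 ± 41.3, SD, n = 5). The low PAC mice had 98.6, 131, 134, 224 and 136 FPKM (145 ± 46.8). The high PAC mice had 100, 100, 67.9, 157 and 57.6 FPKM (96.6 ± 38.6). The highest mouse was low PAC 4 and the lowest high PAC 5, and 2 high PAC mice lay below every low PAC mouse. The log2 difference of high PAC from low PAC was -0.62 (SE 0.30, 95% interval -1.26 to 0.02, unadjusted p = 0.0581, adjusted p = 0.896 from edgeR), and the exact permutation p was 0.1032. It was -0.41 without low PAC 4, -0.50 without high PAC 3, and -0.88 without high PAC 4. Against water the log2 fold change was -0.37 for high PAC (interval -1.01 to 0.28, adjusted p = 0.556) and 0.25 for low PAC (interval -0.39 to 0.89). Without any 1 mouse the value for high PAC lay between -0.62 (without high PAC 4) and -0.21 (without water 1), and was -0.22 without high PAC 3 and -0.23 without high PAC 5. That for low PAC lay between 0.05 (without low PAC 4) and 0.41 (without water 1), and was 0.10 without water 4 and 0.14 without water 5. Without water 1 and 3 these were -0.002 and 0.62. None passed the adjusted test. Between the PAC groups the unadjusted p fell under 0.05 in 6 alternatives and was lowest without high PAC 4 (0.00917 from edgeR, adjusted p = 0.671). Against water, high PAC without the same mouse had a log2 fold change of -0.62 (unadjusted p from edgeR 0.0493, adjusted p = 0.294). Fgf15 overlaps the antisense genes Gm26793 and Gm39119.

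Nr0b2 (SHP, gene 23957, chromosome 4, 133553376 to 133556536, plus strand), the repressor induced by FXR, was measured by between 13 and 57 counts per mouse. It ranged from 0.84 to 2.1 FPKM in the water mice, from 0.61 to 2.97 in the low PAC mice and from 1.08 to 2.1 in the high PAC mice. The low PAC group held both the 2 lowest mice and the 2 highest, so that its coefficient of variation was 64.4%, the largest of the 8 genes in any group. The log2 fold change was -0.16 for high PAC (95% interval -1.0 to 0.68) and -0.09 for low PAC (interval -0.93 to 0.74). For none of the 8 genes and in no comparison were the groups without overlap in FPKM. Among genes with a mean of at least 1 FPKM the groups did not overlap for 5.16% (high PAC against water), 0.603% (low PAC against water) and 0.788% (high PAC against low PAC).

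Mice of the same group differed from each other in several of the 8 genes at once. Water mice 4 and 5 were the 2 lowest of the 15 for Slc10a2, Fabp6, Slc51a, Slc51b and Nr1h4, and were also low for Fgf15 (ranks 2 and 4 from the lowest) and Nr0b2 (ranks 3 and 5). In water mouse 5, Slc10a2 stood at 94.8 FPKM against 264 to 324 in water mice 1 to 3. The 8 genes took 0.352% and 0.32% of the counts in these 2 mice and at least 0.499% in the others. The same mice were the 2 highest for the proximal transcription factor gene Gata4 (12.5 and 12.7 FPKM, against 1.69 to 4.58 in water mice 1 to 3). Of the 8 markers of the proximal small intestine, they were the 2 highest for 2 (Lct and Adh6a) and the 2 lowest for 1 (Slc40a1), and the other 5 showed neither. Of the 7 other reported FXR targets they were the 2 lowest for 2 (Car12 and Sdc1), whereas Nos2 stood at 78.1 and 62.5 FPKM in them, beside 32.9 to 70.3 in water mice 1 to 3. Their enterocyte marker sums, 12663 and 12081 FPKM, lay within the range of the other mice. Of the 6 distal ileum markers they were the 2 lowest for 1, Nts (49.3 and 49.9 FPKM), and the 2 highest for 0. Beside water mice 1 to 3, water 4 and 5 were both lower for Clec2h (781 and 778 FPKM, against 909 to 1049), Cubn (168 and 152 FPKM, against 182 to 204), Nts and Pyy. This did not hold for Amn and Dab2. The sums of the 6 distal markers were 1077 and 1055 FPKM, beside 912 (in high PAC 3) to 1414 in the other 13 mice. Those of the 8 proximal markers were 649 and 1077 FPKM, beside 222 to 739 in the other 13 mice. Most of the sum in water 5 came from Apoa4 (604 FPKM) and Fabp1 (329 FPKM). High PAC 3 differed in another way, with the highest Fabp6 but Slc10a2, Slc51a and Fgf15 each at rank 3 from the lowest. The part of gut position in these values was not tested.

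**Figure D3:**
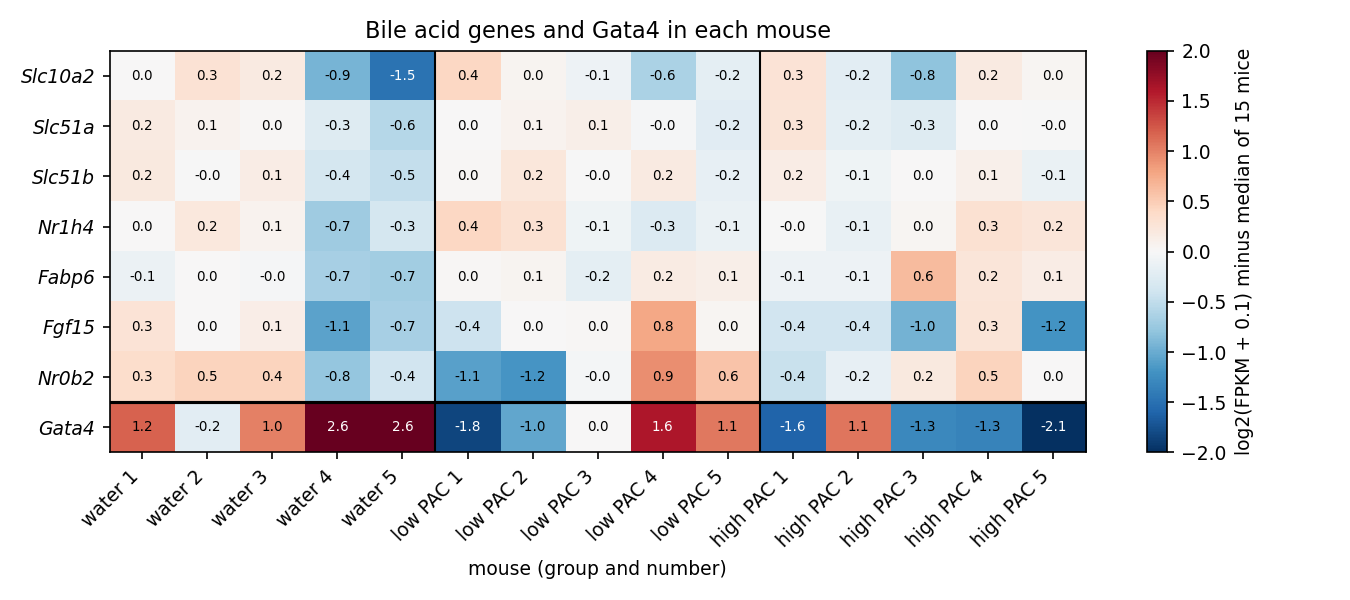
Log2(FPKM + 0.1) of 7 bile acid genes and Gata4 (rows) in each mouse (columns), less the median of the 15 mice, with red above and blue below it. Water mice 4 and 5 are blue for all 7 genes and deepest red for Gata4.

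The shared variation was measured over the 28 pairs of the 8 genes as correlations of log2(FPKM + 0.1) across the 15 mice, with group means subtracted (permutation tests, 100000 resamples, Benjamini-Hochberg over 28 pairs). In 4 pairs the adjusted p of Pearson's r was under 0.05, all with positive r. Slc10a2 and Slc51a, the carriers at opposite faces of the enterocyte, had r = 0.83 (permutation p = 0.00014, adjusted p = 0.002), and Spearman's rank correlation rho was 0.81 (permutation p = 0.00047, adjusted p = 0.012). The 2 exporter subunits had r = 0.82 (permutation p = 0.00013, adjusted p = 0.002) and rho = 0.73 (permutation p = 0.0029, adjusted p = 0.027). For Slc10a2 and Nr1h4, r was 0.75 (permutation p = 0.0013, adjusted p = 0.013) and rho 0.78 (permutation p = 0.00084, adjusted p = 0.012). Without the 2 mice most distant from the median once group means were subtracted (water 5 and high PAC 3, or water 5 and high PAC 1 for the exporter pair), these r were 0.66, 0.74 and 0.89. For Fgf15 and Slc51b, r was 0.70 (permutation p = 0.0041, adjusted p = 0.029), and rho, 0.63, did not pass (permutation p = 0.015, adjusted p = 0.068). Fgf15 and Nr0b2 had r = 0.64 (permutation p = 0.011, adjusted p = 0.05) and rho = 0.69 (permutation p = 0.0056, adjusted p = 0.039). Fgf15 and the FXR gene Nr1h4 showed no such relation (r = 0.22, permutation p = 0.42, adjusted p = 0.65, and rho = 0.07, permutation p = 0.81, adjusted p = 0.91). Leaving out any 1 mouse kept the r of these 3 carrier and receptor pairs between 0.70 and 0.87. Without high PAC 3, 9 of the 28 pairs passed in place of 4, and with log2 CPM of the counts 7 of 21. In the measured levels, the mice most distant from the median of Slc10a2 and of Slc51a were water 4 and 5. Without both, r was 0.56 for Slc10a2 and Slc51a (permutation p = 0.046, adjusted p = 0.17), 0.57 for the exporter subunits (permutation p = 0.043, adjusted p = 0.17) and 0.66 for Slc10a2 and Nr1h4 (permutation p = 0.013, adjusted p = 0.17). For Fgf15 the most distant mice were water 4 and high PAC 5, and without them r was 0.61 with Slc51b (permutation p = 0.027, adjusted p = 0.17) and 0.63 with Nr0b2 (permutation p = 0.019, adjusted p = 0.17). When each pair was computed in this way over 13 mice, 0 of the 28 passed. The calls on shared variation were therefore lost without these mice. These 5 r lay between 0.56 and 0.66, but 3 pairs without water 4 and 5 had negative r of like size, Slc10a2 and Fabp6 (r = -0.56, permutation p = 0.049, against 0.32 in all mice), Fabp6 and Slc51a (r = -0.58, permutation p = 0.039, against 0.27) and Slc10a2 and Nr0b2 (r = -0.60, permutation p = 0.031, against 0.02), each with an adjusted p of 0.17.

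After the values of water mice 4 and 5 had been seen, the 8 genes were set against Gata4, which encodes a transcription factor known to hold down ileal bile acid genes in the proximal small intestine. Of 8 relations, 2 passed in both measures. Nr1h4 was lower where Gata4 was higher, with r = -0.86 (permutation p = 2e-05, adjusted p = 0.00016) and rho = -0.91 (permutation p = 1e-05, adjusted p = 8e-05, where 1e-05 is the smallest that the resamples can give). For Slc10a2, r was -0.69 (permutation p = 0.0045, adjusted p = 0.018) and rho -0.79 (permutation p = 0.00075, adjusted p = 0.003). Without the 2 mice most distant from the median of Gata4 once group means were subtracted (high PAC 2 and low PAC 4), r was -0.87 and -0.74. Water 4 and 5 were the most distant in measured Gata4. Without both, the relation of Nr1h4 had r = -0.88 (permutation p = 7e-05, adjusted p = 0.00056) and rho = -0.86 (permutation p = 0.00029, adjusted p = 0.0023), whereas r of Slc10a2 was -0.60 and did not pass (permutation p = 0.03, adjusted p = 0.08), with rho = -0.77 (permutation p = 0.0031, adjusted p = 0.012). In those 13 mice Fgf15 had r = 0.54 (permutation p = 0.054, adjusted p = 0.11) and rho = 0.66 (permutation p = 0.016, adjusted p = 0.043), and Nr0b2 had r = 0.62 (permutation p = 0.023, adjusted p = 0.08) and rho = 0.48 (permutation p = 0.098, adjusted p = 0.20). Without any 1 mouse r stayed between -0.90 and -0.83 for Nr1h4 and between -0.78 and -0.63 for Slc10a2. Slc51a had r = -0.58 (permutation p = 0.024, adjusted p = 0.065) and rho = -0.58 (permutation p = 0.026, adjusted p = 0.07), which did not pass. Of the genes that FXR induces, Fabp6 had r = -0.42 (permutation p = 0.12, adjusted p = 0.19) and rho = -0.28 (permutation p = 0.32, adjusted p = 0.51), and Slc51b r = -0.42 (permutation p = 0.12, adjusted p = 0.19) and rho = -0.38 (permutation p = 0.17, adjusted p = 0.33). The r was 0.08 for Fgf15 (permutation p = 0.77, adjusted p = 0.88) and 0.25 for Nr0b2 (permutation p = 0.36, adjusted p = 0.48), with rho of 0.14 (permutation p = 0.63, adjusted p = 0.63) and 0.23 (permutation p = 0.41, adjusted p = 0.55). Because this set of relations was chosen on the same mice, these p-values are not independent evidence.

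**Figure D4:**
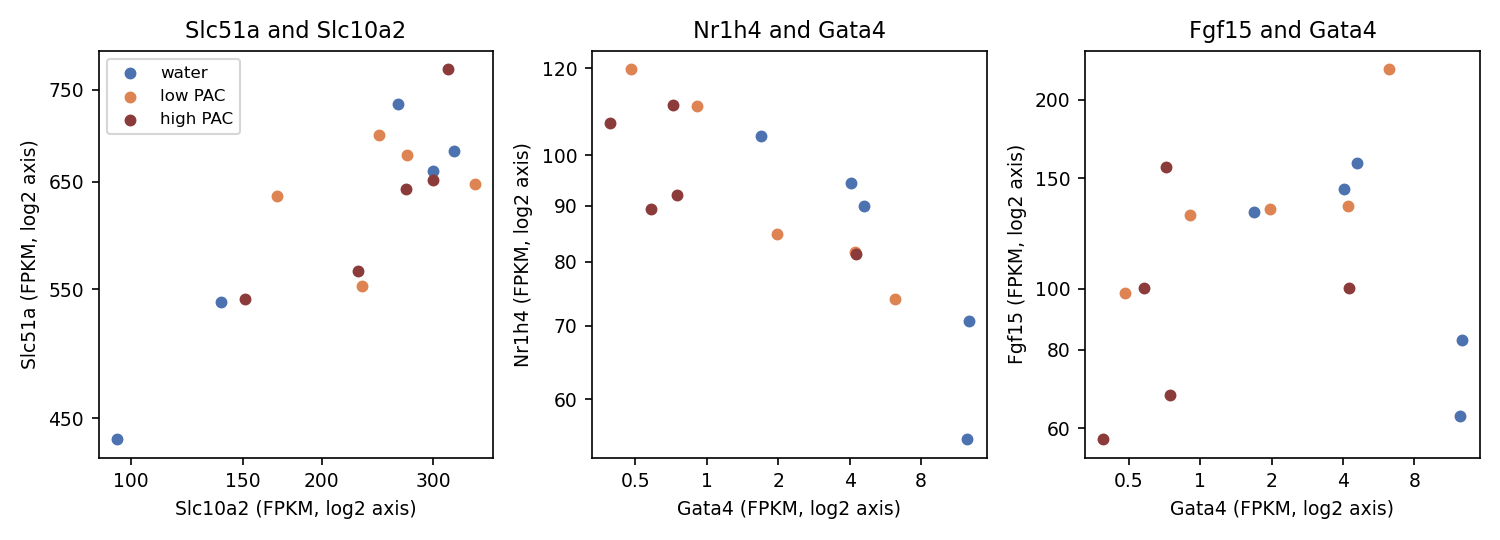
FPKM of 2 genes against each other in the 15 mice on log2 axes, coloured by group: Slc51a against Slc10a2, Nr1h4 against Gata4 and Fgf15 against Gata4. Slc51a was higher where Slc10a2 was higher (r = 0.83 with group means subtracted) and Nr1h4 was lower where Gata4 was higher (r = -0.86), and for Fgf15 r with Gata4 was 0.08.

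Of 52 further genes of bile acid handling and FXR signalling in 6 lists, 44 passed the filter, and none had an adjusted p under 0.05 in any comparison (edgeR). Against water, 13 of the 44 (29.5%) had an unadjusted p under 0.05 with high PAC, 1 higher and 12 lower, beside 4.37% of all genes higher and 10.4% lower. With low PAC the count was 0, beside 3.61% of all genes, and between the PAC groups 4 (9.09%), beside 3.89%, which became 1 without high PAC 3, beside 1.83%. The split moved with scaling and with 1 mouse. When TMM was replaced by upper-quartile scaling, 3 were higher and 7 lower, beside 10.5% of all genes higher and 5.67% lower. With limma on log2(FPKM + 0.1), 5 were higher and 6 lower, beside 15.8% and 3.67% of all genes. Without high PAC 3, 3 were higher and 6 lower, beside 5.25% and 5.62%. Over all genes the split of 628 higher and 1500 lower turned to 1505 and 816 with upper-quartile scaling, where the list genes had 3 higher and 7 lower. With limma the list genes were close to evenly split. The median log2 fold change of the 44 genes for high PAC was -0.14, or -0.06 without high PAC 3, beside 0.002 over all genes. Beside these lower values, the 7 enterocyte markers were all lower in the high PAC group (median log2 fold change -0.38, or -0.20 without high PAC 3) and the 5 smooth muscle markers all higher (0.42, or 0.56), with none of these genes past an adjusted p of 0.05. Water mice 1 and 3 stood apart in the smooth muscle markers, with sums of 283 and 247 FPKM against 516 to 998 in the other 13 mice. Without both, in a fit added after seeing the data, 2 of the 5 markers were higher and 3 lower with high PAC (median -0.02), while the 7 enterocyte markers were all lower still (median -0.31). In that fit 8 of 45 list genes had an unadjusted p under 0.05, 3 higher and 5 lower, beside 3.23% of all genes higher and 4.51% lower. The part of tissue composition in the list values was not tested.

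Among 9 other bile acid carriers, 6 were tested and 3 had an unadjusted p under 0.05, all lower with high PAC, beside 10.4% of all genes lower. Without high PAC 3 there were 2 (Abcc2 and Abcc3), beside 5.62%, and without water 1 and 3 there was 1 (Slco2b1), beside 4.51%. With all mice the 3 were the apical exporter Abcc2 (30.8 ± 12.7 against 42.9 ± 3.99 FPKM with water, SD, n = 5, log2 fold change -0.57, adjusted p = 0.30 from edgeR, or -0.33 without high PAC 3, which stood at 11.7 against 25 to 44 FPKM in the other high PAC mice), the basolateral exporter Abcc3 (-0.37, adjusted p = 0.269) and the uptake carrier Slco2b1 (-0.22, adjusted p = 0.291). The hepatic uptake and export carriers Slc10a1 and Abcb11 did not exceed 0.21 and 0.07 FPKM in any mouse. Of 7 other reported intestinal FXR targets, 2 had an unadjusted p under 0.05, both lower with high PAC, beside 10.4% of all genes lower. Nos2, an inducible nitric oxide synthase, stood at 25.5 ± 23.4 FPKM with high PAC against 58.3 ± 18.1 with water (SD, n = 5, log2 fold change -1.28, adjusted p = 0.30 from edgeR). The cytokine gene Il18 stood at 28.6 ± 5.71 FPKM with water and 18.4 ± 2.70 with high PAC (-0.73, adjusted p = 0.221). Car12 was the third of the list by p, at 0.49 (adjusted p = 0.359). The median of this list was -0.17, or -0.08 without high PAC 3. Without that mouse the 2 genes with an unadjusted p under 0.05, beside 10.9% of all genes, were Il18, lower, and Car12, higher at 0.63 (adjusted p = 0.399). Nos2 then had -1.09 (adjusted p = 0.493). Nos2 and Gata4 are among the genes the study itself singled out on these mice and are not independent evidence of direction.

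Of the 16 partners, cofactors and related receptors of FXR, 15 were tested. With high PAC against water 13 had a negative log2 fold change (median -0.15, beside 0.002 over all genes). With low PAC against water 14 of the 15 were negative (median -0.03, beside -0.014). Between the PAC groups 13 were negative (median -0.11, beside 0.005). The smallest p for high PAC against water belonged to the coactivators Ncoa1 (-0.21, adjusted p = 0.215 from edgeR) and Ncoa2 (-0.23, adjusted p = 0.275) and the xenobiotic receptor PXR, Nr1i2 (-0.17, adjusted p = 0.271). These 3 had an unadjusted p under 0.05, all lower, beside 10.4% of all genes lower. Without high PAC 3 their log2 fold changes were -0.14, -0.11 and -0.09, and the median of the list was -0.06. Ncoa1 alone of the 3 kept an unadjusted p under 0.05, beside 5.62% of all genes lower. The FXR partner Rxra stood at 34.2 ± 3.69 FPKM with high PAC and 34.8 ± 2.87 with water (SD, n = 5). Among 8 intestinal transcription factors 4 had an unadjusted p under 0.05, all lower with high PAC, beside 10.4% of all genes lower. Without high PAC 3 this held for 2 of them, Gata4 and Gata6, beside 5.62% of all genes lower. Gata4 had the largest log2 fold change of all 44 genes in size, at -2.48 (SE 0.76, adjusted p = 0.211 from edgeR), with 0.58, 4.23, 0.75, 0.72 and 0.39 FPKM in the high PAC mice. The water mice had 4.58, 1.69, 4.04, 12.5 and 12.7 FPKM and the low PAC mice 0.48, 0.91, 1.97, 6.23 and 4.19 FPKM. High PAC 2 lay within the water range and the other 4 high PAC mice below it. Gata6, which is expressed along the whole small intestine, had -0.26 (26.3 ± 0.98 against 29.4 ± 1.73 FPKM, SD, n = 5, adjusted p = 0.193) and Hnf4g -0.40 (adjusted p = 0.275). Without high PAC 3, Gata4 had -2.30, Gata6 -0.20 and Hnf4g -0.28.

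Of the genes for Fgf15 production and reception, Malrd1, which affects how much Fgf15 enterocytes release, had a log2 fold change of -0.25 with high PAC (adjusted p = 0.461 from edgeR), or -0.08 without high PAC 3, where it was lowest, at 32.4 FPKM. The receptor genes Fgfr4 and Klb were at 3.59 ± 0.543 and 1.25 ± 0.604 FPKM with high PAC, against 2.52 ± 0.595 and 0.75 ± 0.316 with water (SD, n = 5, log2 fold changes 0.41 and 0.65, adjusted p = 0.279 and 0.374). Of 9 genes of hepatic synthesis and conjugation, 5 were tested. The smallest p for high PAC belonged to the sterol hydroxylase Cyp27a1 (-0.27, or -0.15 without high PAC 3, adjusted p = 0.428 from edgeR), Baat (0.26, adjusted p = 0.541) and the racemase Amacr (0.07, adjusted p = 0.64), and Cyp8b1, Akr1d1 and Slc27a5 did not exceed 0.19 FPKM in any mouse.

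**Figure D5:**
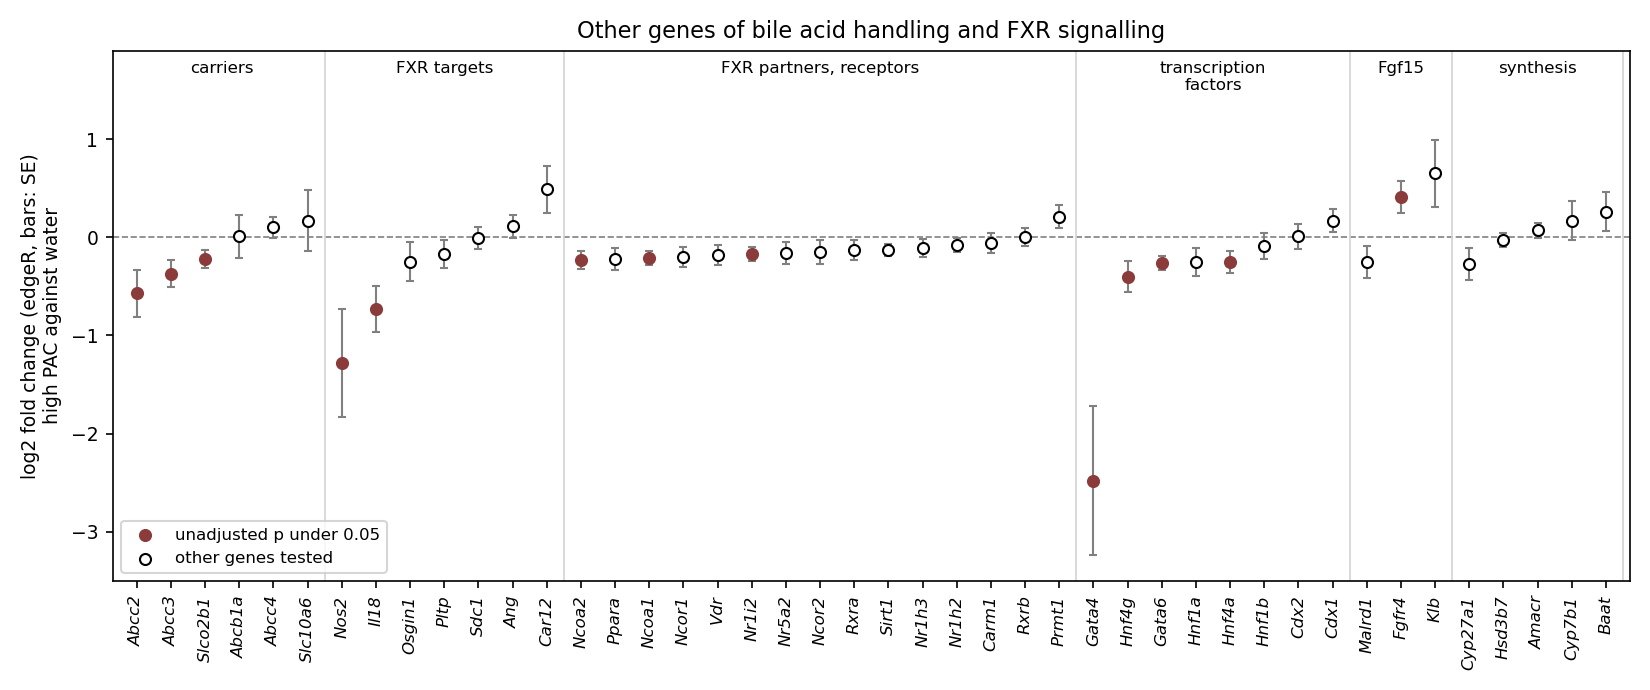
Log2 fold change of the 44 tested list genes for high PAC against water (y axis, edgeR, bars are the SE), grouped by list and ordered by value. Filled points have an unadjusted p under 0.05 (13 genes, 12 of them below 0), and none passed an adjusted p of 0.05.

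The genes whose levels followed those of single members most closely across mice were taken from 12422 genes with a mean of at least 1 FPKM, as a description (Pearson r of log2(FPKM + 0.1), 15 mice, group means subtracted). For Slc10a2 they were Slc25a48 and Scin (r = 0.96 each), Chp1 (0.95), D330045A20Rik (0.94) and the sulfate carrier gene Slc13a1 (0.93). For Fabp6 they were Arrdc4 (0.92), the aryl hydrocarbon receptor gene Ahr (0.90), Tmem171 (0.87), Cmas and Adk (0.86 each). For Slc51b they were Tmem54 and Ms4a8a (0.89 each), Neu1 and Cap1 (0.86 each) and Sqle (0.84). For Fgf15 the likeness was lower, with Dolpp1 (0.87), Tnfrsf11a (0.82), Ube2q1 and Ankrd13a (0.77 each) and Bloc1s3 (0.76).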

How the data were processed

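Ileal RNA of 15 mice, 1 library each, was sequenced on a BGISEQ-500. Per the study's methods, reads were cleaned with SOAPnuke and mapped to mm10 with Bowtie2, whereas the submitters' processing notes name HISAT and DESeq2. The counting tool is not given in the sources used here. For each gene the authors deposited an expected count, an estimated number of fragments that is not normalized, and the authors also deposited FPKM, scaled by gene length and library size. Genes under 0.01 FPKM were not listed and were taken as 0. The study called genes with NOIseq, which was not used here.

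Expected counts were rounded and tested in edgeR 4.0.16 (R 4.3.3; TMM, filterByExpr, glmQLFit and glmQLFTest) with 1 model of all 15 mice, and p-values were adjusted by Benjamini-Hochberg over 14386 genes (threshold 0.05). Intervals are 95%. For single genes, log2(FPKM + 0.1) was also compared by exact permutation over all 252 splits (two-sided). Totals per mouse of 15963086 to 17903886 leave little counting error except in Nr0b2 and Gpbar1. Where DESeq2 (1.42.0) or limma (3.58.1) is not named, an adjusted p is that of edgeR. P-values set a difference or a correlation against the spread between mice. For correlations the mice were shuffled after group means were subtracted, with no allowance for the means removed. In simulated counts for high PAC against water over 14386 genes, edgeR called 18, 43, 47 and 50 of 50 genes changed by log2 0.5, 1, 1.5 and 2, with 11 false calls.

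The 8 genes, the gene lists and the tests were chosen with earlier results of these data known. Genes named were the 8, up to 3 per list with the smallest unadjusted p for high PAC against water, the 5 most similar genes to Slc10a2, Fabp6, Fgf15 and Slc51b, and markers of the tissue check. Lct, Adh6a, Slc40a1, Apoa4, Fabp1, Car12, Sdc1, Nos2, Malrd1, Pyy, Amn, Dab2, C1qa, Cd68, Adgre1 and Csf1r in water mice 4 and 5 or high PAC 3, Rxra, and the near-undetected Slc10a1, Abcb11, Cyp8b1, Akr1d1 and Slc27a5 were named after their values were seen. Alternatives were other normalizations (upper quartile, RLE), DESeq2, limma on log2 FPKM, no filter, only the 2 groups compared, a replicate block, and each mouse left out (for the list genes only high PAC 3). Promoters are from RefSeq, which gave 7 of the 8 genes. Figures were drawn with matplotlib 3.10.9.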

Additional observations from a re-analysis of the deposited data

Results flagged for a closer look

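Gata4 in high PAC 2 was 4.23 FPKM, far from the 0.39 to 0.75 FPKM of the other 4 high PAC mice. The gap to the nearest of them was 0.906 of the range of the group, above Dixon's critical value of 0.71 for 5 samples. Of the 27 sets of 5 mice compared in this way (9 genes in 3 groups), this was the 1 that exceeded it, and chance alone exceeds it in about 1 of 20 sets.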

How the results depend on the processing

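Under every alternative run, 0 of the 7 tested genes (8 without a filter) and 0 of the 44 list genes (45 without water 1 and 3, 51 without a filter) had an adjusted p under 0.05 in each comparison. For the list genes, of the fits without a single mouse only that without high PAC 3 was counted. Of 504 log2 fold changes recomputed for the 7 genes, 447 kept their direction and 57 turned, none of which had passed the test. The cause of the turns was not tested. For high PAC against water, Slc51a became 0.02 with upper-quartile normalization and 0.07 with limma on FPKM at either pseudocount (0.1 or 1). Slc51b became 0.05 with upper-quartile, 0.01 with RLE, 0.01 with DESeq2, 0.02 without a filter and 0.11 with limma. For high PAC against low PAC, Nr1h4 became 0.01 with upper-quartile and 0.04 with limma, and Nr0b2 0.17 (pseudocount 0.1) and 0.05 (pseudocount 1). Without water 1 and 3 (added after seeing the data), Slc51a became 0.13, Slc51b 0.22 and Nr0b2 0.13 for high PAC against water and Nr0b2 0.20 for low PAC, and an unadjusted p under 0.05 was reached by 1 of the 7 genes for high PAC (Fabp6, beside 7.74% of all genes), 2 for low PAC (Fabp6 and Slc51b, beside 1.69%) and 1 between the PAC groups (Fgf15, beside 3.36%). Without each mouse in turn, high PAC against water ranged from -0.13 to 0.26 (Slc10a2), -0.16 to 0.05 (Slc51a), -0.11 to 0.08 (Slc51b) and -0.003 to 0.20 (Nr1h4). Low PAC against water ranged from -0.09 to 0.27 (Slc10a2), -0.10 to 0.10 (Slc51a), -0.02 to 0.17 (Slc51b) and -0.43 to 0.11 (Nr0b2). High PAC against low PAC ranged from -0.16 to 0.11 (Slc10a2), -0.01 to 0.18 (Fabp6), -0.13 to 0.01 (Slc51a), -0.09 to 0.07 (Nr1h4) and -0.27 to 0.27 (Nr0b2).

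With the mouse number as a replicate block, 0 of the 7 genes were called in each comparison. Blocked, Slc51b became 0.01 for high PAC against water, and for high PAC against low PAC Slc10a2 became 0.02 and Nr1h4 0.03. Same-numbered mice deviated together (r over 0.1) in 5 of 15 pairs, and 2 of 15 mice correlated best with their own number, so the numbers were not taken as a pairing. By the exact permutation test, 1 of the 8 genes (Gpbar1) had p under 0.05 for high PAC against water, beside 14.7% of all genes, and 0 for low PAC. With log2 CPM, which leaves out Gpbar1, the count for high PAC was 0 of 7, and with log2(FPKM + 1) that for low PAC was 1 (Gpbar1, exact permutation p = 0.0476). Correlated pairs numbered 4 of 28, but 7 of 21 with log2 CPM, 9 of 28 without high PAC 3 and 0 of 28 without the 2 mice most distant in the measured level of the first gene (added after seeing the data). Relations with Gata4 by Pearson's r, for which alternatives were added after seeing the data, numbered 2 of 8, 3 of 8 with log2(FPKM + 1), 2 of 7 with log2 CPM and 1 of 8 without water 4 and 5, where by rho 3 of 8 passed (Nr1h4, Slc10a2 and, with a positive sign, Fgf15). Low counts limited Gpbar1 and Nr0b2.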

Other observations

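Genes of other cell types in the same pieces of ileum varied widely between mice. The sum of 6 Peyer's patch B cell markers ranged from 6.98 to 141 FPKM with water, 7.23 to 70.7 with low PAC and 5.50 to 214 with high PAC, and was 205 FPKM in high PAC 3. The 3 mesothelial markers summed to 0.09 to 12.7 FPKM with water, 3.93 to 12.3 with low PAC and 2.63 to 16 with high PAC. The 5 enteroendocrine markers summed to 176 FPKM in high PAC 3, against 90.8 to 138 in the other mice, and the 4 macrophage markers to 86.6 FPKM against 47.5 to 70. Of the macrophage markers only C1qa (59.6 FPKM) was highest in this mouse, and Cd68, Adgre1 and Csf1r lay within the range of the other mice. None of the tested genes of these 4 lists had an adjusted p under 0.05 for high PAC against water (edgeR).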
